A study of Sus scrofa with 2 samples.

Results

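Genes of the G2 phase and mitosis were followed in dissociated cells of pig dorsal skin, across every lineage of the tissue. The members were a fixed list of 43 gene symbols. Of these, 39 were present by symbol among the 31908 genes of the deposited matrices. MKI67, AURKA, NUSAP1 and TACC3 had no row under that symbol and were not counted. The cells came from male farm pigs and were dissociated with a Miltenyi whole skin kit before dead cells were removed. There were 2 libraries, a fresh one (treatment none) and a cryopreserved one, whose cells had been stored in liquid nitrogen in 90% FBS with 10% DMSO. Freezing is part of the extraction text of each sample, so the fresh one is known by its title and treatment alone. Whether an animal was shared between the libraries is not stated in the sources used here. No test was run on 1 library per condition, and each interval below is a 95% interval for counting error only. The intervals are exact, except that those of differences in shares are Newcombe intervals built from exact bounds.

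Cells enter mitosis when the kinase CDK1 is activated by cyclin B. Condensins and topoisomerase II then compact the chromosomes, kinetochores attach them to the spindle, and a checkpoint holds back the anaphase promoting complex until every chromosome is attached. Transcripts of these genes build up in G2 and are held low in resting cells by repressor complexes that act at their promoters. In skin, basal keratinocytes divide throughout life, whereas most fibroblasts and vascular cells are at rest.

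Droplet 3′ scRNA-seq counts transcripts by unique molecular identifiers (UMIs). The fresh matrix held 4379 barcodes and the cryopreserved matrix 4860, and 6 barcode sequences occurred in both. The study kept barcodes with at most 4500 genes, 30000 UMIs and 10% mitochondrial UMIs, which left 2775 fresh cells (median 11017 UMIs) and 4223 cryopreserved cells (median 7945 UMIs). With the mitochondrial limit alone, 3375 fresh and 4414 cryopreserved barcodes remained, with medians of 13074 and 8214.5 UMIs. Clusters made without the listed cell cycle genes were given 9 lineage names from marker genes, each written with "-like". The clusters, and so the names, were the same with and without the maxima.

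The promoters of 3 members are shown, chosen for their many UMIs among the members that hold the same short motif. These genes do not share 1 pattern in the cells, which played no part in the choice. Each stretch runs from 250 bases before to 20 bases after the 5′ end of the RefSeq gene on Sscrofa11.1, and is written in the direction of the gene. Capitals mark the TTTGAA core of the cell cycle homology region and the CCAAT box, on either strand (TTCAAA and ATTGG are the same motifs read on the opposite strand). CKS2 lies on the plus strand at chr14:904512-904781, HMGB2 on the plus strand at chr14:16709716-16709985 and DIAPH3 on the minus strand at chr11:32994835-32995104.
CKS2: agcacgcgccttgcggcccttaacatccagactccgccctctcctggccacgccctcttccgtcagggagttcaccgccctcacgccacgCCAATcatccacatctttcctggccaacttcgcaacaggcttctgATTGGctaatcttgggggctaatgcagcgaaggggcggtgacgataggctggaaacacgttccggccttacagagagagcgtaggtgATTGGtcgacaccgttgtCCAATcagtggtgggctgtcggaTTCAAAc
HMGB2: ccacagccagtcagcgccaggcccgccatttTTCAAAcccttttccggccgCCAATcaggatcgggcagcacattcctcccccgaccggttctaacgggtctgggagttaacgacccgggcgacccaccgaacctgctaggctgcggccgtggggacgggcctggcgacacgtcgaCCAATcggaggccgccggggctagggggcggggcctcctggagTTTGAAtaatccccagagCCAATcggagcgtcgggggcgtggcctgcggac
DIAPH3: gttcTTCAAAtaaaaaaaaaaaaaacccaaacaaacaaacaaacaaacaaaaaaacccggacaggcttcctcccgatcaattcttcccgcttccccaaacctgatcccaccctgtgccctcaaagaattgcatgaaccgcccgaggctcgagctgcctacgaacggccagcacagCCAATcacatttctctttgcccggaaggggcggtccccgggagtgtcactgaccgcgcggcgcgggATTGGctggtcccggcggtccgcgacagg
In CKS2 the TTTGAA core begins 14 bases after the start, and 4 CCAAT boxes stand before it. HMGB2 holds cores 219 and 31 bases before its start, and 3 CCAAT boxes, and DIAPH3 holds 1 core, 246 bases before its start, and 2 CCAAT boxes. Over the RefSeq window of 300 bases (250 before to 50 after the start), the TTTGAA core was found in 22 of 39 mitosis genes (56.4%) and in 2739 of 19559 protein-coding genes (14%). The CCAAT box was found in 32 of 39 (82.1%) against 35.4% of all windows, and both motifs together in 19 of 39 (48.7%) against 5.53%. A match describes the letters of a window only.

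Within the study's maxima, the summed level of the 39 mitosis genes was higher in the cryopreserved library. It was 533.2 CPM (counts per 1e6 UMIs, on library sizes scaled by TMM) in fresh cells (interval 525.3 to 541.2, 17440 UMIs) and 705.4 CPM in cryopreserved cells (interval 696.8 to 714.1, 25538 UMIs). The ratio, cryopreserved over fresh, was 1.32 (interval 1.30 to 1.35). Without the maximum of 4500 genes the sums were 703.4 and 836.4 CPM, a ratio of 1.19 (interval 1.17 to 1.21). With neither the gene nor the UMI maximum they were 894.5 and 835.1 CPM, and the ratio turned to 0.934 (interval 0.921 to 0.947). The lineages also differed in number between the libraries. With the fresh library's shares of lineages applied to both, the ratio within the maxima was 1.202.

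T or NK-like cells held the highest summed level of mitosis genes in both libraries and with either filter. Within the maxima it was 1627 CPM in fresh (interval 1552 to 1705) and 1916 CPM in cryopreserved T or NK-like cells (interval 1842 to 1992). Without the gene and UMI maxima it was 2281 and 1902 CPM, and the fresh library was then the higher one. HMGB2 alone gave 397.7 and 533.8 CPM of the T or NK-like sums within the maxima. Without HMGB2 these cells still stood highest. In the cryopreserved library without the maxima, however, they held 1381 CPM against 1374 CPM in mast-like cells, with overlapping intervals. Fibroblast-like cells held the lowest level in each case, with 375.1 and 363.4 CPM within the maxima (ratio 0.969, interval 0.934 to 1.005) and 499.9 and 402.7 CPM without them (ratio 0.806, interval 0.783 to 0.829). In keratinocyte-like cells the direction turned as well. Their sums within the maxima were 638.8 and 950.4 CPM (ratio 1.49, interval 1.44 to 1.54), and with the mitochondrial limit alone 1477 and 1311 CPM (ratio 0.887, interval 0.870 to 0.905). CD163/CD209 myeloid-like cells turned in the same way, from 452.1 and 524.3 CPM (ratio 1.16, interval 1.06 to 1.27) to 858.5 and 573.2 CPM (ratio 0.668, interval 0.621 to 0.718).

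In 4 other lineages the cryopreserved library was higher under both filters. Lymphatic-like cells held 1242 and 1449 CPM within the maxima and 1211 and 1473 CPM without them. Langerhans or other dendritic-like cells held 601.4 and 949.1 CPM, and 721.4 and 939.6 CPM. Mast-like cells held 798.6 and 1259 CPM, and 799.4 and 1505 CPM, over only 204 fresh UMIs. In SMC-like cells, the smooth muscle cells and pericytes of vessels, the sums were 392.5 and 995.4 CPM within the maxima (ratio 2.54, interval 2.33 to 2.76) and 727.3 and 1048 CPM without them. Endothelial-like cells stood at 667.2 and 711.4 CPM within the maxima, and at 728.7 and 707.7 CPM without, and both intervals of the ratio include 1.

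**Figure D1:**
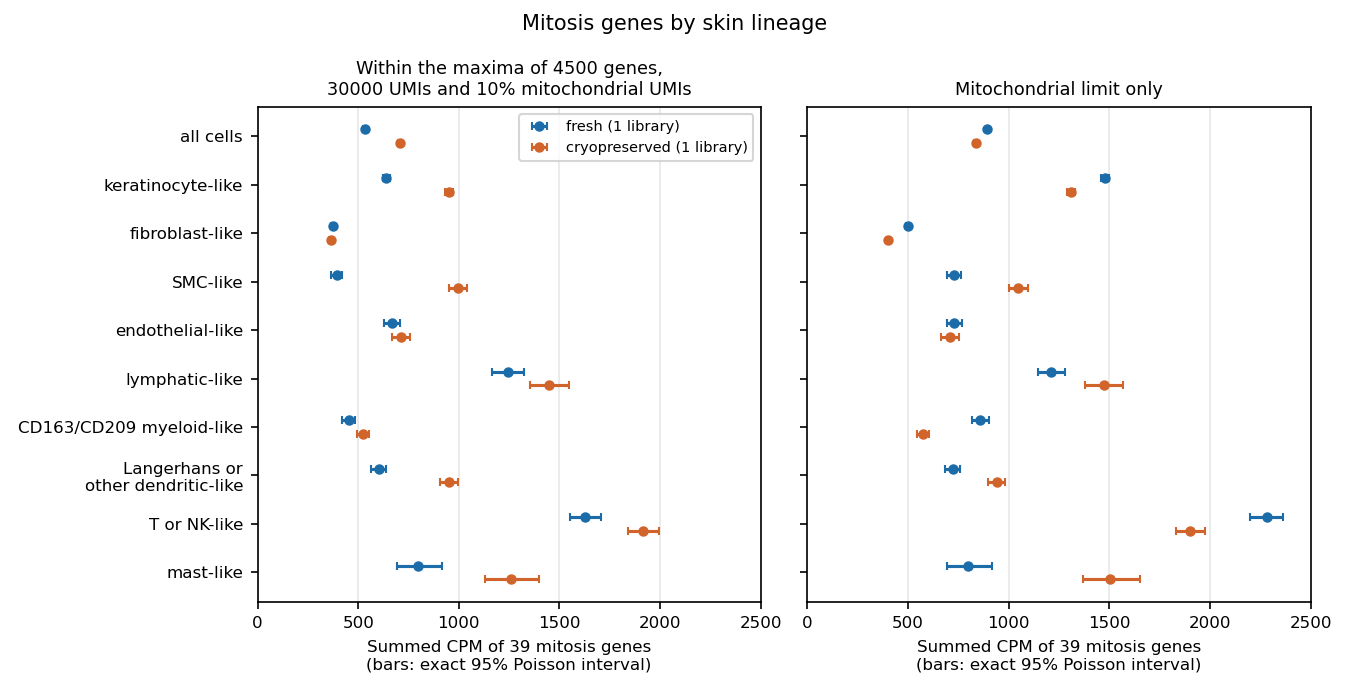
Summed CPM of the 39 mitosis genes (x axis) in all cells and in 9 lineages (y axis), within the 3 maxima (left) and with the mitochondrial limit alone (right). Points are 1 library each and bars are exact Poisson intervals. The fresh points of all cells and of keratinocyte-like, endothelial-like, myeloid-like and T or NK-like cells pass the cryopreserved points once the gene and UMI maxima are removed, with overlapping bars in endothelial-like cells.

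A few barcodes carried much of some sums. In cryopreserved SMC-like cells, 3 barcodes held 374, 299 and 287 of the 1955 UMIs of mitosis genes within the maxima (49.1%), with 34, 35 and 34 of the 39 genes detected. Without the 3 barcodes with most mitosis UMIs in each library, a choice made after seeing the data, the SMC-like sums were 314.2 and 517.7 CPM and the ratio was 1.65 (interval 1.49 to 1.83). In cryopreserved mast-like cells 3 barcodes held 32.3% of the UMIs, and the ratio without them and their fresh counterparts was 1.41 (interval 1.15 to 1.73). The same step left keratinocyte-like cells at 1.53 and fibroblast-like cells at 0.991.

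Barcodes with a UMI of at least 10 of the 39 genes are called mitosis-rich here. This is a range of a count and not a cell type. Near the lower edge, 11 fresh and 16 cryopreserved barcodes held 9 of the genes, and 14 and 14 held 10. Within the maxima, 87 of 2775 fresh cells (3.14%, interval 2.52 to 3.85) and 172 of 4223 cryopreserved cells (4.07%, interval 3.50 to 4.71) were mitosis-rich. Under the mitochondrial limit alone the counts were 248 of 3375 (7.35%, interval 6.49 to 8.28) and 239 of 4414 (5.41%, interval 4.77 to 6.12). The difference in shares, cryopreserved minus fresh, was 0.938 percentage points (interval 0.0174 to 1.83) within the maxima and -1.93 points (interval -3.07 to -0.821) without them. The direction within the maxima also turned with the cut. With at least 5 genes in place of 10, the cryopreserved share there was the lower one. No barcode sequence that occurred in both libraries was mitosis-rich.

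These few barcodes held a large part of the transcripts. Within the maxima they carried 32.0% of fresh and 41.6% of cryopreserved mitosis UMIs, and with the mitochondrial limit alone 65.7% and 53.2%. Inside the mitosis-rich barcodes the summed level was 4714 CPM in fresh and 5130 CPM in cryopreserved cells (ratio 1.09, interval 1.07 to 1.11, mitochondrial limit alone). By lineage it was 4772 and 5017 CPM in keratinocyte-like, 5203 and 4967 CPM in fibroblast-like and 5351 and 5962 CPM in T or NK-like mitosis-rich barcodes. It was further apart in SMC-like ones, with 5116 and 9953 CPM (ratio 1.95, interval 1.79 to 2.11, 10 and 12 barcodes), and in mast-like ones, with 2652 and 6475 CPM over 1 and 4 barcodes. Once such barcodes were taken out, the sum within the maxima was 375.9 CPM in fresh and 436.9 CPM in cryopreserved cells, a ratio of 1.16 (interval 1.13 to 1.19). All 9 lineages then had ratios above 1, from 1.05 in CD163/CD209 myeloid-like to 1.504 in Langerhans or other dendritic-like cells. The interval included 1 in CD163/CD209 myeloid-like (0.955 to 1.16) and T or NK-like cells (0.977 to 1.18). In SMC-like cells the ratio was 1.22 without such barcodes, against 2.54 with them. The count that sorts the barcodes moves with depth, and cryopreserved barcodes were shallower. At 5 to 9 genes detected, mitosis genes took a median of 0.0581% of UMIs in fresh and 0.0850% in cryopreserved barcodes. Ratios inside and outside the mitosis-rich barcodes therefore also carry this selection, and its part in them was not tested.

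The maximum of 4500 genes removed mitosis-rich barcodes at different rates in the libraries. It removed 161 of 248 fresh mitosis-rich barcodes (64.9%, interval 58.6 to 70.8) and 67 of 239 cryopreserved ones (28.0%, interval 22.4 to 34.2). Among all barcodes within the mitochondrial limit it removed 593 of 3375 (17.6%) and 190 of 4414 (4.30%). The share above the maximum was lowest in barcodes with none of the mitosis genes and highest in those with 20 to 39 of them, with no steady order between. It was 3.801% of fresh and 0.166% of cryopreserved barcodes with none, 36.7% and 16.1% with 5 to 9, 46.7% and 25.5% with 10 to 14, 46.2% and 7.14% with 15 to 19, and 74.4% and 35.2% with 20 to 39. The cryopreserved share at 15 to 19 genes, 3 of 42 barcodes, was below that at 5 to 9. A barcode with more UMIs has more genes and more chances to hold a mitosis gene. Fresh barcodes had median UMIs of 6967.5 with none of the genes and 19371 with 5 to 9. The fresh medians were 18449 with 10 to 14, 18974 with 15 to 19 and 26534.5 with 20 to 39. Between 5 to 9 and 10 to 14 genes the fresh share rose, with overlapping intervals (32.0 to 41.6 and 31.7 to 62.1). The median UMIs did not rise there, the upper quartile rose from 25703 to 28287 and the lower quartile fell from 14190 to 11122. In cryopreserved barcodes the medians were 4772, 12640, 13594, 9405 and 15965.5 in the same bins. The median mitosis-rich barcode held 23836.5 UMIs and 4960 genes in fresh cells, and 13996 UMIs and 3889 genes in cryopreserved cells. The part of depth in the loss was not tested.

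**Figure D2:**
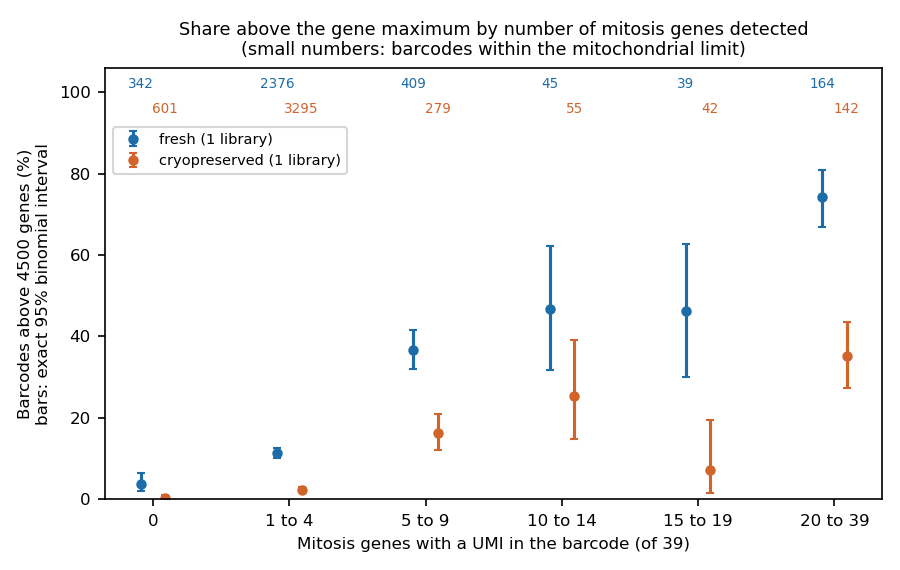
Share of barcodes with over 4500 genes, in percent (y axis), by the number of mitosis genes detected in the barcode (x axis), for each library within the mitochondrial limit. Points are shares, bars are exact binomial intervals and the small numbers count the barcodes. The fresh share passes the cryopreserved share in every bin and reaches 74.4% among barcodes with 20 to 39 genes.

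The share lost was higher in the fresh library in 8 of 9 lineages, all but mast-like cells. It was also higher in the same 8 over all barcodes of each lineage, a set that includes the mitosis-rich ones. Among barcodes with 1 to 9 of the genes, the fresh share was again higher in keratinocyte-like (23.9% and 4.23%) and fibroblast-like cells (18.9% and 4.76%). So it was in SMC-like, endothelial-like, lymphatic-like and Langerhans or other dendritic-like cells. It was lower there in CD163/CD209 myeloid-like (3 of 138 and 9 of 225) and T or NK-like cells (1 of 127 and 2 of 217). Over all barcodes the shares were 32.2% and 7.93% in keratinocyte-like, 18.9% and 4.63% in fibroblast-like, and 4.61% and 1.17% in T or NK-like cells. Of keratinocyte-like mitosis-rich barcodes, the gene maximum removed 97 of 122 fresh (79.5%) and 50 of 133 cryopreserved (37.6%). Of fibroblast-like ones it removed 34 of 58 (58.6%) and 11 of 36 (30.6%). Among T or NK-like cells, the lineage with the highest summed level of the mitosis genes, it removed 6 of 23 (26.1%) and 1 of 28 (3.57%). The counts were 7 of 10 and 2 of 12 in SMC-like, 7 of 8 and 1 of 4 in CD163/CD209 myeloid-like, 5 of 9 and 0 of 10 in Langerhans or other dendritic-like, and 3 of 10 and 0 of 5 in endothelial-like cells. Lymphatic-like cells lost 2 of 7 and 1 of 7, and mast-like cells 0 of 1 and 1 of 4. The exact intervals of the libraries lay apart in keratinocyte-like cells (71.3 to 86.3 and 29.3 to 46.4) and overlapped in the other 8 lineages. Such overlap does not show equal shares, and no interval of the difference was taken for these lineages.

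With the mitochondrial limit alone, the mitosis-rich share was in keratinocyte-like cells 122 of 780 in the fresh (15.6%) and 133 of 1148 in the cryopreserved library (11.6%), a difference of -4.06 points (interval -7.33 to -0.874). Within the maxima the same shares were 4.73% and 7.85%, a difference of 3.13 points (interval 0.459 to 5.56). Fibroblast-like shares were 3.87% and 2.19% without the maxima (difference -1.68 points, interval -2.96 to -0.441). T or NK-like shares were 15.1% and 10.9% (difference -4.24 points, interval -11.8 to 2.69). Without the maxima, only the keratinocyte-like and fibroblast-like intervals left out equality. In the clustering, 1 keratinocyte-like cluster was led by UBE2C, CDC20, CCNB1 and CENPA, although all listed cell cycle genes were left out of its features. It held 58.2% of fresh and 60.9% of cryopreserved keratinocyte-like mitosis-rich barcodes. Without that cluster the keratinocyte-like sums within the maxima were 565.5 and 670.9 CPM and the ratio was 1.19 (interval 1.14 to 1.23). Within the maxima, mitosis genes outside the cluster were thus also higher in the cryopreserved library. The step was not repeated without the maxima, where the ratio of the whole lineage was 0.887.

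Barcodes of 2 cells also hold many genes, and their measures are given beside the counts. Of mitosis-rich barcodes above the gene maximum, 18.6% of fresh and 16.4% of cryopreserved ones were among the 6% with the highest Scrublet doublet score. For other barcodes above the maximum the shares were 15.97% and 32.5%, and for mitosis-rich barcodes within it 4.598% and 5.81%. In keratinocyte-like mitosis-rich barcodes above the maximum, the markers of other lineages took a median of 0.0591% of UMIs, against 0.0596% in other keratinocyte-like barcodes within it. In fibroblast-like cells the same medians were 0.0948% and 0.0962%. By doublet score, however, 18 of 45 fibroblast-like mitosis-rich barcodes above the maximum (40%) were in the top 6%, against 5.63% of other fibroblast-like barcodes within it. The same shares were 8.84% and 1.89% in keratinocyte-like cells. In smaller lineages, the mitosis-rich barcodes above the maximum in the top 6% were 4 of 9 SMC-like and 2 of 8 CD163/CD209 myeloid-like ones. They were 2 of 7 T or NK-like, 1 of 3 endothelial-like and 1 of 3 lymphatic-like ones. The counts were 0 of 5 in Langerhans or other dendritic-like and 0 of 1 in mast-like cells. In SMC-like mitosis-rich barcodes within the maximum the SMC markers took 0.410% and the markers of other lineages 0.415%, against 1.08% and 0.335% in the other SMC-like barcodes. The SMC-like name of those barcodes therefore rests on low marker levels. Without the barcodes in the top 6%, the summed ratio within the maxima was 1.34 over all cells, against 1.32 with them. It was 1.49 in keratinocyte-like and 0.960 in fibroblast-like cells, against 1.49 and 0.969. In SMC-like cells it was 3.18 against 2.54, as the fresh UMIs fell from 767 to 597. Apart from this step, the part of doublets in these results was not tested.

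A share of cells with a mitosis UMI moves with depth, so each cell was thinned to 1000 UMIs. Within the maxima 33.7% of fresh and 37.9% of cryopreserved cells then held at least 1 mitosis UMI (difference 4.17 points, interval 1.84 to 6.48), with 27 and 32 shallower cells left out. Unthinned, the shares were 88.1% and 85.8%. Without the maxima the thinned shares were 35.1% and 38.4%. Among mast-like cells, taken as the class least likely to divide, they were 62.9% and 67.5%, above those of fibroblast-like cells (24.2% and 27.4%) and close to those of T or NK-like cells (67.8% and 61.1%). For this reason the shares were not read as a measure of division. With UMIs of at least 3 mitosis genes the thinned shares, without the maxima, were 5.79% (interval 5.03 to 6.64) and 4.84% (interval 4.22 to 5.52), with 11.6% and 9.57% in keratinocyte-like and 8.06% and 7.5% in mast-like cells.

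Of the 39 mitosis genes, 38 had at least 50 UMIs over both libraries within the maxima. The exception was CDC25C, the phosphatase that activates CDK1, with 1 fresh and 3 cryopreserved UMIs. A gene is called higher or lower here where its CPM differed by a log2 ratio (cryopreserved over fresh) of at least 0.5 in size. Within the maxima 19 of 38 mitosis genes were higher and 0 were lower, against 10.3% higher and 7.55% lower among 14443 genes. The median log2 ratio of the mitosis genes was 0.50, and that of all genes 0.02. Without the gene maximum 6 were higher (8.77% of all genes) and 0 lower (6.2%). With the mitochondrial limit alone 0 were higher (8.61% of all genes) and 11 were lower (5.82%), and the median was -0.27 against 0.00 for all genes. Over all barcodes 1 was higher (8.99%) and 10 were lower (6.03%). Every one of the 38 genes had a lower ratio without the maxima than within them. The ratio stood above 0 within the maxima and below 0 without them for 27 genes, above 0 in both settings for 6, and below 0 in both for 5.

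**Figure D3:**
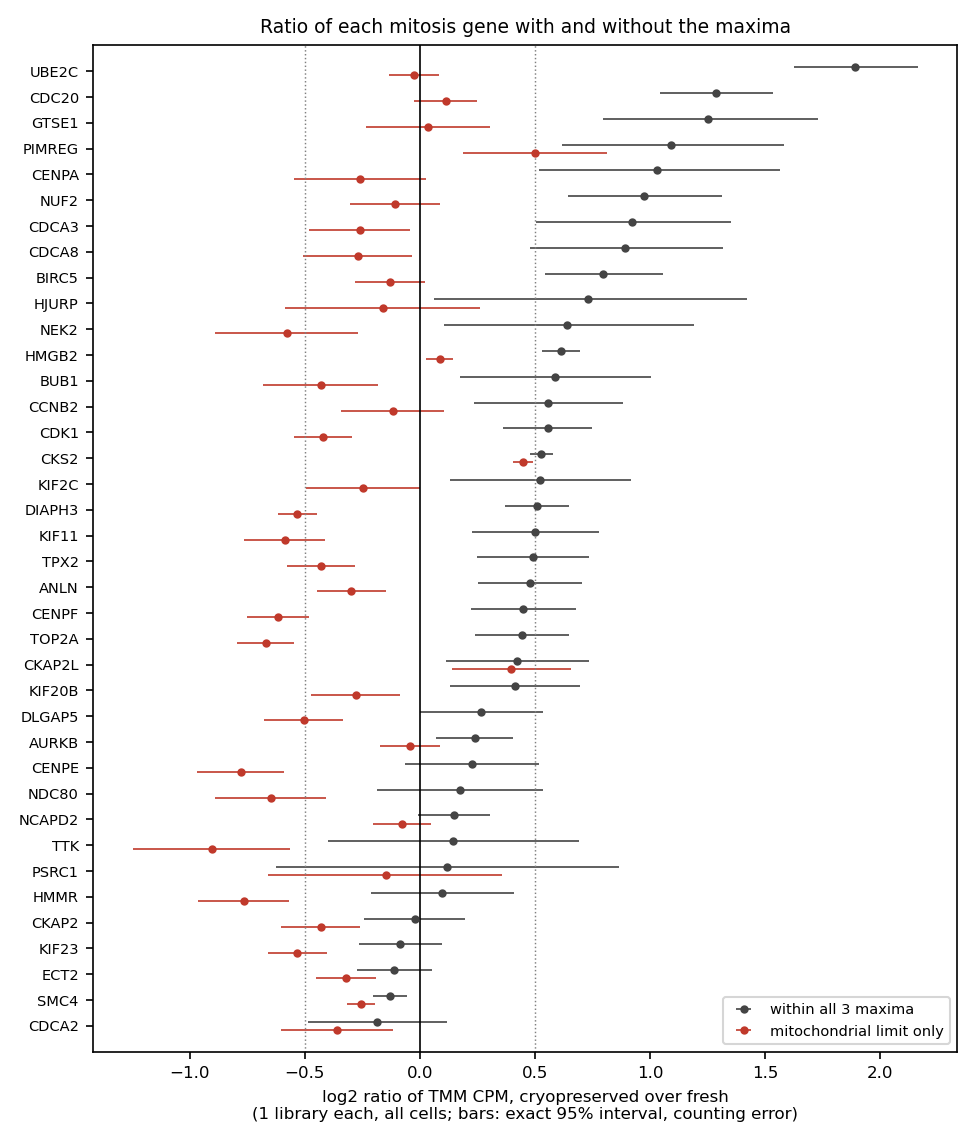
Log2 ratio of CPM, cryopreserved over fresh (x axis), of the 38 mitosis genes with at least 50 UMIs (y axis), within the 3 maxima and with the mitochondrial limit alone. Points are 1 ratio of 1 library each, bars are exact intervals for counting error, the solid line marks equal levels and the dotted lines a log2 ratio of 0.5 in size. Every gene lies further left without the maxima.

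CDK1, the kinase that starts mitosis, and CKS2, a small subunit of CDK complexes, represent the first group. CDK1 stood at 10.9 CPM in fresh and 16.1 CPM in cryopreserved cells within the maxima (log2 ratio 0.55, interval 0.36 to 0.75) and at 26.7 and 19.98 CPM without them (log2 ratio -0.42, interval -0.55 to -0.29). CKS2 was the exception to that reversal. It stood at 156.3 and 225.2 CPM within the maxima (log2 ratio 0.53, interval 0.48 to 0.58) and at 167.5 and 228.6 CPM without them (0.45, interval 0.41 to 0.49). CKS2 alone made up 29.3% of fresh and 31.9% of cryopreserved mitosis UMIs within the maxima. Without CKS2, a step added after seeing the data, the summed ratio of the other genes was 1.27 (interval 1.24 to 1.30) within the maxima and 0.834 (interval 0.821 to 0.848) without them. Cyclin B2 (CCNB2), the partner of CDK1, had log2 ratios of 0.56 and -0.12.

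Among genes of chromosome structure, SMC4, a core subunit of condensin, stood at 90.3 and 82.5 CPM within the maxima (log2 ratio -0.13, interval -0.20 to -0.06) and at 104.3 and 87.3 CPM without them (-0.26, interval -0.32 to -0.19). Among the 38 genes it was the only 1 whose interval lay below 0 within the maxima. HMGB2, a chromatin protein that is abundant in dividing cells, stood at 57.8 and 88.2 CPM within the maxima (0.61, interval 0.53 to 0.69) and at 101.9 and 108.1 CPM without them (0.09, interval 0.03 to 0.14). TOP2A, the topoisomerase that untangles sister chromatids, is outside the rule for named genes and was chosen after its values were seen. It stood at 10.1 and 13.8 CPM within the maxima and at 31.9 and 20.03 CPM without them (-0.67, interval -0.79 to -0.55). CDCA2, which targets a phosphatase to chromatin, had log2 ratios of -0.19 and -0.36.

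The centromere and kinetochore group showed the lowest ratio of the 7 role groups once the maxima were removed. Its 6 genes summed to 22.8 and 32.5 CPM within the maxima (ratio 1.42, interval 1.30 to 1.56) and to 64.8 and 45.4 CPM without them (ratio 0.700, interval 0.661 to 0.741). CENPF, a large kinetochore protein, went from 8.16 and 11.13 CPM to 25.03 and 16.3 CPM (log2 ratios 0.45 and -0.62). CENPE, a kinetochore motor, went from 5.41 and 6.33 CPM to 14.3 and 8.36 CPM (0.23 and -0.78). CENPA, the histone of the centromere, had log2 ratios of 1.03 (interval 0.52 to 1.56) and -0.26 (interval -0.55 to 0.02).

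Genes of the checkpoint and of mitotic exit were the furthest apart within the maxima. UBE2C, the ubiquitin-conjugating enzyme that works with the anaphase promoting complex, had 145 fresh and 595 cryopreserved UMIs there, or 4.43 and 16.4 CPM (log2 ratio 1.89, interval 1.63 to 2.16). Without the maxima it stood at 30.2 and 29.7 CPM (-0.02, interval -0.13 to 0.08), so the largest ratio of the list was gone. CDC20, the activator of that complex, went from 5.84 and 14.2 CPM (1.28, interval 1.04 to 1.53) to 18.5 and 20.03 CPM (0.11, interval -0.02 to 0.25). The 5 genes of the group summed to a ratio of 2.43 (interval 2.20 to 2.69) within the maxima and 0.936 (interval 0.890 to 0.985) without them. In the cryopreserved library 1 barcode held 63 of the 595 UBE2C UMIs (10.6%).

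The chromosomal passenger complex corrects wrong attachments and later acts at the cleavage furrow. Its kinase AURKB stood at 15.8 and 18.6 CPM within the maxima (log2 ratio 0.24, interval 0.07 to 0.41) and at 21.5 and 20.9 CPM without them (-0.04, interval -0.17 to 0.09). BIRC5, which carries the name survivin, went from 5.93 and 10.3 CPM (0.80) to 16.6 and 15.2 CPM (-0.13). In RefSeq 4 tRNA genes overlap the span of AURKB, and their part in its UMIs was not tested.

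Of the spindle genes, TPX2, a microtubule nucleator that activates Aurora A, went from 7.001 and 9.83 CPM (log2 ratio 0.49) to 19.8 and 14.7 CPM (-0.43). CKAP2, a microtubule-associated protein, stood at 10.3 and 10.1 CPM within the maxima (-0.02, interval -0.24 to 0.19) and at 14.9 and 11.04 CPM without them (-0.43). GTSE1, a microtubule-binding protein of G2, had log2 ratios of 1.25 and 0.03, and PIMREG of 1.09 and 0.50 (interval 0.19 to 0.81), with 20 of the 125 cryopreserved PIMREG UMIs within the maxima in 1 barcode. In cytokinesis, the formin DIAPH3 went from 21.3 and 30.4 CPM (0.51, interval 0.37 to 0.65) to 59.7 and 41.3 CPM (-0.53, interval -0.62 to -0.45). ECT2, the exchange factor that activates RhoA at the furrow, had log2 ratios of -0.11 and -0.32, and KIF23, a kinesin of the central spindle, of -0.08 and -0.53.

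The genes differed in how far their transcripts were confined to barcodes rich in the other mitosis genes. For each gene, barcodes were chosen by the other 38 genes, with at least 10 of them detected, under the mitochondrial limit alone. At least 80% of a gene's UMIs lay in such barcodes in both libraries for 20 of 38 genes. For CDCA3 the shares were 98.8% in fresh and 97.9% in cryopreserved cells, for UBE2C 98.5% and 96.4%, and for CENPA 96.9% and 90.1%. Only 5 of the 38 genes had under 50% there in both libraries. These were CKS2 (26.9% and 19.1%), NCAPD2 (39.3% and 32.8%), SMC4 (39.6% and 33.6%), CKAP2L (39.8% and 25.1%) and ECT2 (44.2% and 36.7%). The share was lower in the cryopreserved library for all 38 genes. That library also had a smaller share of mitosis-rich barcodes (5.41% against 7.35% of barcodes) and fewer UMIs per barcode. The share of all UMIs in such barcodes is not given here, so the lower shares are not read as a trait of these genes.

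**Figure D4:**
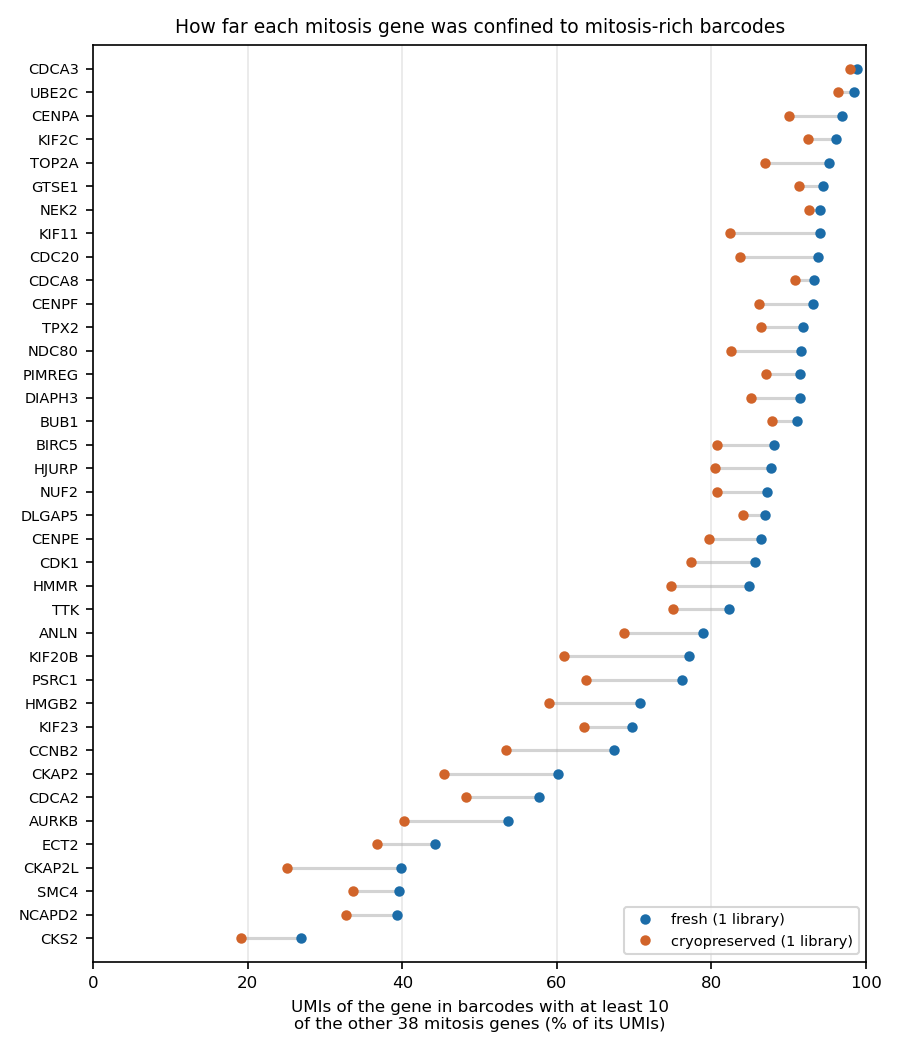
Share of each mitosis gene's UMIs in barcodes with at least 10 of the other mitosis genes, in percent of its UMIs (x axis), for the 38 genes with at least 50 UMIs (y axis), within the mitochondrial limit. Each point is 1 gene in 1 library. The cryopreserved point lies left of the fresh point for all 38 genes, with CKS2 lowest at 26.9% and 19.1%.

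Levels in barcodes without any other mitosis gene showed the same split. CKS2 stood at 91.5 CPM in such fresh barcodes and at 380.5 CPM in fresh barcodes with at least 10 of the others, a 4.16-fold difference. In the cryopreserved library its levels were 161.8 and 533.2 CPM, a 3.30-fold difference. DIAPH3 stood at 1.95 CPM (only 6 UMIs, interval 0.715 to 4.24) and 455.5 CPM in the fresh library, 234-fold apart. As a sum, the 5 genes with under 50% of their UMIs in barcodes rich in the others had a ratio of 1.22 within the maxima and 1.12 without them. Within the maxima, CKS2 alone gave 5111 of the 9431 UMIs of that sum in fresh cells and 8151 of 12728 in cryopreserved cells. Without CKS2, a step added after seeing the data, the ratios of the other 4 were 0.957 and 0.863. SMC4 and ECT2 were below equality in both settings, and NCAPD2 turned from a log2 ratio of 0.15 to -0.08. The 34 remaining mitosis genes had summed ratios of 1.45 and 0.826.

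CKS2 was higher in the cryopreserved library in all 9 lineages under both filters. Without the maxima it stood at 234.5 and 275.7 CPM in keratinocyte-like (ratio 1.18, interval 1.12 to 1.23), 99.1 and 144.0 CPM in fibroblast-like and 269.5 and 336.7 CPM in T or NK-like cells. The interval of the ratio included 1 only in CD163/CD209 myeloid-like cells, with 225.1 and 254.0 CPM (interval 0.995 to 1.28). SMC4 had another order of lineages. It was highest in mast-like cells (360.5 and 407.5 CPM) and T or NK-like cells (292.0 and 247.5 CPM) and stood at 73.4 and 48.2 CPM in fibroblast-like cells.

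HMGB2 reached 567.8 and 521.6 CPM in T or NK-like cells, against 166.4 and 165.1 CPM in keratinocyte-like cells. TOP2A stood at 166.5 and 82.7 CPM in T or NK-like, 53.4 and 34.4 CPM in keratinocyte-like and 16.5 and 6.71 CPM in fibroblast-like cells, lower in the cryopreserved library in each. UBE2C was lower in cryopreserved keratinocyte-like cells (70.9 and 57.9 CPM) and CD163/CD209 myeloid-like cells (32.1 and 8.37 CPM), and higher in SMC-like cells (11.5 and 79.95 CPM). Mitosis-rich barcodes were few there, 8 fresh and 4 cryopreserved in CD163/CD209 myeloid-like and 10 and 12 in SMC-like cells. In cryopreserved SMC-like cells 3 barcodes held 46.4% of all mitosis UMIs. Over all 39 genes, T or NK-like cells held the highest level of 20 genes in the fresh library and of 11 in the cryopreserved library. Keratinocyte-like cells held the highest level of 11 and 9 genes, and mast-like cells, with few UMIs, of 2 and 11.

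**Figure D5:**
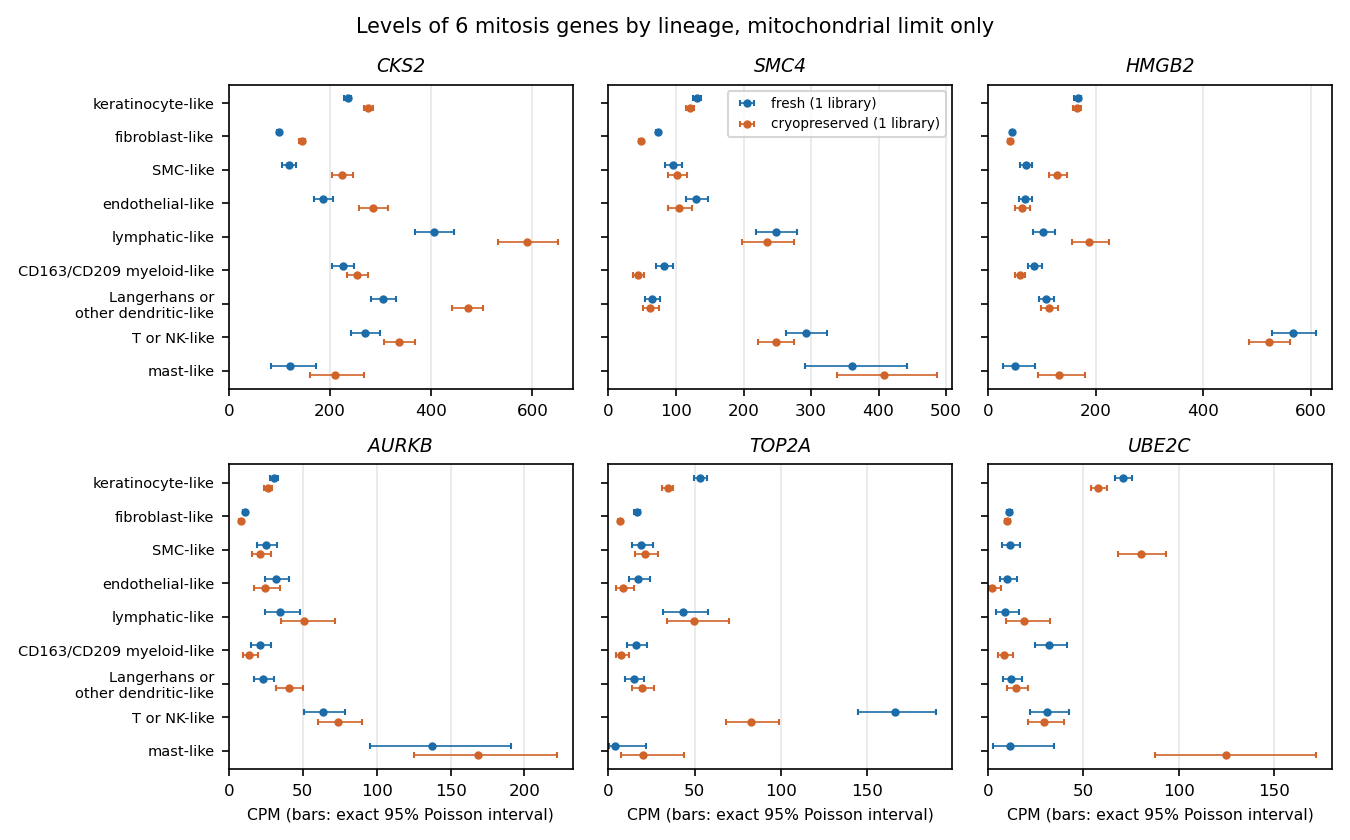
CPM of 6 mitosis genes (x axis, a scale of its own in each panel) in 9 lineages (y axis) in each library, with the mitochondrial limit alone. Points are 1 library each and bars are exact Poisson intervals. CKS2 is higher in the cryopreserved library in each lineage, whereas TOP2A is lower there in keratinocyte-like, fibroblast-like and T or NK-like cells.

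Calls were also counted within lineages, where they did not always follow the sums. In keratinocyte-like cells 22 of 34 mitosis genes were higher and 0 lower within the maxima (10.0% and 4.58% of all genes), and 0 of 38 higher and 8 lower without them (6.87% and 6.69%). In fibroblast-like cells 2 of 29 were higher and 6 lower within the maxima (11.2% and 8.22%). Their median log2 ratio there was -0.34, beside a summed ratio of 0.969. Without the maxima 1 of 36 was higher and 25 were lower (8.85% and 6.97%), with a median log2 ratio of -0.70. In SMC-like cells 10 of 14 were higher and 0 lower within the maxima (11.1% and 7.21%), and 11 of 22 higher and 0 lower without them (11.0% and 6.58%). In T or NK-like cells 4 of 14 were higher and 0 lower within the maxima (14.9% and 8.94%), and 0 of 20 higher and 9 lower without them (12% and 10.7%).

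Inside the mitosis-rich barcodes, thinned to 2000 UMIs, the median mitosis gene was detected in 14.6% of fresh and 15.02% of cryopreserved barcodes. HMGB2 was detected most often, in 58.1% and 64.9%. Across lineages HMGB2 was detected in 58.7% of keratinocyte-like, 59.1% of fibroblast-like and 85.4% of T or NK-like mitosis-rich barcodes. DIAPH3 was detected in 57.4%, 38.7% and 48.0%, and CDK1 in 22.0%, 30.4% and 43.8%. Since the genes themselves chose these barcodes, the shares are a description.

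Other lists of the cell cycle were set beside the mitosis genes. Of 66 other G2 and M phase genes 57 were found, and their sum had a ratio of 1.18 within the maxima and 0.998 without them. Within the maxima 15 of 52 genes were higher and 0 lower, and without them 1 of 54 was higher and 5 were lower. Among all genes 10.3% were higher and 7.55% lower within the maxima, and 8.61% and 5.82% without them. TUBB4B, a tubulin, stood at 368.8 and 456.3 CPM (log2 ratio 0.31), and DEPDC1B at 120.0 and 119.7 CPM (0.00). Of 63 DNA replication genes 57 were found, with ratios of 1.16 and 1.03. Of these, 9 of 54 were higher and 2 lower within the maxima, and 1 of 55 higher and 3 lower without them. The histone mRNA binding protein SLBP had a log2 ratio of 0.28 and the histone chaperone NASP of -0.17. Genes of the anaphase promoting complex and its cofactors had ratios of 1.19 and 1.11 with 3 of 15 higher, among them UBE2S at 82.9 and 128.0 CPM (0.63), while CDC27 stood at -0.27.

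The CDK inhibitors and related arrest genes had ratios of 1.12 and 1.198, with 0 of 12 past the log2 limit in either direction. BTG1, an antiproliferative gene, stood at 490.6 and 656.3 CPM (0.42) and GADD45B had a log2 ratio of -0.02. The transcriptional regulators of the cycle had ratios of 0.934 and 0.912, with RB1 at -0.31 and LIN54, a subunit of the complex that binds the TTTGAA core, at -0.23. In mitosis-rich barcodes against barcodes with none of the mitosis genes, the other G2 and M genes stood at 4012 and 682 CPM in the fresh library and at 4096 and 810 CPM in the cryopreserved library. DNA replication genes stood at 2693 and 576 CPM in fresh cells. The CDK inhibitors and related arrest genes summed to 1417 and 1408 CPM in fresh and 1616 and 1710 CPM in cryopreserved cells. That sum covers genes that did not move alike. In fresh cells GADD45B stood at 295.9 and 492.5 CPM and BTG1 at 380.4 and 411.7 CPM.

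The non-member genes whose log-normalised levels followed the share of mitosis UMIs most closely were found across 2775 fresh and 4223 cryopreserved cells. The mean Pearson r over both libraries was 0.37 for STMN1, a tubulin-binding protein, 0.36 for ASPM, a spindle pole protein, and 0.32 for SHCBP1. It was 0.31 for KIF20A and PCLAF, 0.30 for PBK and 0.29 for KIF22. A further 3 genes were given by identifier only, ENSSSCG00000026302 (0.37), ENSSSCG00000004782 (0.31, BUB1B in the gene name table) and ENSSSCG00000017032 (0.30). These correlations run over cells of shared libraries and depth and are a description.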

How the data were processed

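Cells of fresh and cryopreserved pig skin (1 library each, 2 libraries in all) were measured by 10x Genomics 3′ scRNA-seq. The deposited values are raw UMI counts per gene and barcode, which the authors made with Cell Ranger 4.0.0 and STAR 2.5.1b on Sscrofa11.1 with Ensembl genes. No column of another sample was met (0 columns).

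The members and the gene lists were chosen with earlier results of these data known. Barcodes were kept with at most 10% of UMIs from 13 mitochondrial protein genes and, for the study's maxima, at most 4500 genes and 30000 UMIs. Totals were 53271738 fresh and 42217632 cryopreserved UMIs. Clusters came from 1 Seurat 5.3.0 anchor integration (2000 features, 30 dimensions, resolution 0.8, R 4.3.3). Of the 23 clusters, 22 took a lineage name where at least 3 of the fixed markers were detected in 10% of cells and at least 2.0-fold above the median of clusters, a scoring rule set after its output was seen, and 1 stayed unnamed. Names rebuilt this way may differ from those of the study. UMIs were summed per library and lineage and scaled with TMM (edgeR 4.0.16) or, as an alternative, with DESeq2 1.42.0 size factors. Intervals were exact Poisson, conditional binomial and Clopper-Pearson intervals at 95% (scipy 1.17.1). Those of differences in shares were Newcombe intervals built from the exact bounds. All of these intervals cover counting error and not the spread between animals. Those of summed UMIs also leave out the spread between cells. Doublets were scored with Scrublet in scanpy 1.11.5 and not removed, except in the sums stated to leave out the highest scores. Scrublet called 47 of 3375 fresh and 63 of 4414 cryopreserved barcodes. The scripts were tested on simulated data.

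Named were the 2 genes with most UMIs in each of 7 role groups and in each other list, the 5 highest and 5 lowest ratios among members with at least 50 UMIs, and the 10 non-member genes most alike (at least 200 UMIs). Promoters were those of the 4 members with most UMIs whose window holds the TTTGAA core, of which 1 is not reported here, read from the RefSeq genome of Sscrofa11.1.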

Additional observations from a re-analysis of the deposited data

Results flagged for a closer look

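With the mitochondrial limit alone, the summed level of the mitosis genes lay on opposite sides of equality in different lineages. In the lineages listed here each interval left out 1. These intervals treat UMIs as independent and leave out the spread between barcodes. The ratio, cryopreserved over fresh, was below 1 in keratinocyte-like (0.887), fibroblast-like (0.806), CD163/CD209 myeloid-like (0.668) and T or NK-like cells (0.834). It was above 1 in mast-like (1.88), SMC-like (1.44), Langerhans or other dendritic-like (1.30) and lymphatic-like cells (1.22). Not every role group followed its lineage sum. In lymphatic-like cells CDK1 and its regulators, the group with CKS2, had a ratio of 1.41. Chromosome structure stood at 1.27, checkpoint and mitotic exit at 1.78 and the passenger complex at 1.21. Centromere genes stood at 0.965, spindle genes at 0.654 and cytokinesis genes at 0.770. The interval included 1 for the passenger complex, centromere and cytokinesis groups. With 1 library per condition, the difference between lineages was not tested. Some lineages with sums above 1 had a lower mitosis-rich share in the cryopreserved library. Fresh and cryopreserved shares were 3.86% and 3.17% in SMC-like, 6.14% and 5.11% in lymphatic-like, and 7.56% and 5.32% in Langerhans or other dendritic-like cells. In mast-like cells and the lineages below 1 the share followed the sum. Only the keratinocyte-like and fibroblast-like differences in share had intervals that left out equality. Leaving out CKS2 and leaving out the 3 richest barcodes of each library were steps added after the data were seen. Without those barcodes the SMC-like ratio was 1.17 and the mast-like ratio 1.498. The T or NK-like ratio was then 0.945 with an interval that included 1 (0.890 to 1.004), while the other 7 lineages kept intervals that left it out.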

How the results depend on the processing

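The summed ratio over all cells, 1.32 within the maxima, was 1.19 without the gene maximum, 0.934 with neither maximum and 0.940 over all barcodes. It was 1.29 on total UMIs. Among alternatives chosen after the data were seen, it was 1.27 with NUSAP1 added by identifier, 1.27 without CKS2, 1.16 without mitosis-rich barcodes and 1.202 with fresh shares of lineages. Lineages above 1 numbered 8 within the maxima, 5 without the gene maximum and 4 with neither. Without the gene maximum the myeloid-like ratio was 0.732 and the T or NK-like ratio 0.944. With neither maximum keratinocyte-like cells stood at 0.887, myeloid-like at 0.668 and T or NK-like at 0.834. Mitosis genes past the log2 limit numbered 19 within the maxima (10.3% of all genes higher) and 6 without the gene maximum (8.77%), each of them higher. With neither maximum 11 passed it, each of them lower (5.82% of all genes lower). Over all barcodes 1 was higher (8.99%) and 10 were lower (6.03%). At a limit of 1, 5 passed it within the maxima, each of them higher, and the share of all genes is not given here. The ratio of mitosis-rich shares, 1.30 within the maxima, was 0.973, 0.737 and 0.852 in the same 3 settings. The cut also turned its direction, since it was 0.776 within the maxima with at least 5 genes in place of 10. In keratinocyte-like cells it was 0.741 with neither maximum and 0.677 with at least 5 genes. With at least 5 genes, 47.3% of fresh and 21.6% of cryopreserved barcodes lay above 4500 genes, and median detection was 6.24% and 8.63%. Not thinned, it was 64.2% and 54.9%. The lists with a median above 0 numbered 5 within the maxima and 1 with neither. With neither maximum the log2 ratio turned to -0.42 for CDK1, -0.12 for CCNB2, -0.67 for TOP2A, -0.26 for CENPA, -0.16 for HJURP, -0.62 for CENPF, -0.11 for NUF2, -0.43 for BUB1, -0.025 for UBE2C, -0.26 for CDCA3, -0.042 for AURKB and -0.13 for BIRC5. It turned to -0.27 for CDCA8, -0.43 for TPX2, -0.59 for KIF11 (-0.023 without the gene maximum alone), -0.25 for KIF2C, -0.50 for DLGAP5, -0.58 for NEK2, -0.30 for ANLN, -0.28 for KIF20B and -0.53 for DIAPH3. Apart from the maxima, the cause of these moves was not tested. Of 60 recomputed values that answer a comparison 35 moved by less than their limits, as did 216 of 302 others. No paired analysis was possible because each condition had 1 library. Depth limits the genes with few UMIs and the small lineages, and no replicate could be left out.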

Other observations

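NUSAP1, a spindle protein of the list with no row under its symbol, is paired with ENSSSCG00000035544 in the gene name table. That row held 4528 fresh and 5351 cryopreserved UMIs within the maxima, and 8519 and 6440 with the mitochondrial limit alone. Only 29.6% and 20.9% of the latter lay in mitosis-rich barcodes, shares close to those of CKS2. CKAP2L, outside the rule for named genes and chosen after its values were seen, kept log2 ratios of 0.42 within the maxima and 0.40 without them (interval 0.14 to 0.66). With the mitochondrial limit alone it stood at 29.5 and 30.5 CPM in CD163/CD209 myeloid-like and 18.9 and 42.96 CPM in Langerhans or other dendritic-like cells, against 1.74 and 0.770 CPM in fibroblast-like cells. IL1A ends 4858 bases before CKAP2L on the same strand in RefSeq, and 1 fresh barcode held 33 of the 145 fresh CKAP2L UMIs within the maxima (22.8%).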
